A study of Mus musculus with 40 samples.

Results

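In interscapular brown adipose tissue (iBAT), 1307 chromatin regions carried H3K27me3 in at least 1 mouse and overlapped H3K4me3 in at least 2. H3K27me3 is trimethylation of lysine 27 on histone H3, set by the Polycomb machinery at silent genes. H3K4me3 is trimethylation of lysine 4 and sits at gene starts that are active or ready for use. To find the regions, H3K27me3 peaks of the 8 mice were merged into 7108 regions, of which 7060 lay on chromosomes 1 to 19, and those overlapping an H3K4me3 peak by at least 1 bp in 2 or more of the 8 H3K4me3 lists were kept. The 1307 members were 18.5% of the 7060 regions. Of the remainder, 549 overlapped H3K4me3 in 1 list and 5204 in none.

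All mice were wild type C57BL/6N animals aged 20 weeks, and every group started from chow. Mice 1 and 2 stayed warm on the normal chow diet (NCD), and mice 4 and 5 ate NCD and spent 24 h at 4 °C. Mice 7 and 8 were warm after 12 weeks of high-fat diet (HFD) begun at 8 weeks of age, and mice 10 and 11 had HFD and the 24 h of cold. The series' own text calls the tissue inguinal brown fat, whereas the methods name the interscapular depot. Each mouse gave an input and 4 immunoprecipitations, for H3K4me3, H3K27ac, H3K4me1 and H3K27me3, so that there were 2 mice in each condition. Whether each library holds brown fat of 1 mouse or of 2 pooled mice is not clear from the methods, and p-values measure the spread between these samples. Whole dissociated tissue was used, and the 8 brown adipocyte marker genes carried H3K4me3 at a start site in all 8 mice. H3K27ac marked all 8 of these genes in every mouse except mouse 7, where it marked 7. The 7 endothelial markers carried H3K4me3 in every mouse except mouse 7, where 5 did.

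A gene start that holds both marks is called bivalent. In embryonic stem cells such starts belong to developmental regulators that are silent but kept open to later activation, and Polycomb complexes are drawn to stretches rich in CpG dinucleotides. H3K27ac, acetylation of the same lysine 27, marks active promoters and enhancers and cannot share a histone tail residue with H3K27me3, while H3K4me1 marks enhancers. In bulk tissue, both marks on the same nucleosome and marks in different cells cannot be told apart, and neither can fewer cells of a type and a weaker mark per cell. The members were chosen by their H3K27me3 and H3K4me3 peaks, so values of these 2 marks are given as a description and without a test.

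The H3K27me3 evidence came mostly from 1 library. A peak of mouse 5 (cold NCD) lay in 1237 of the 1307 members (94.6%), and mouse 11 (cold HFD) followed with 278. Mice 1, 2 and 4 had an H3K27me3 peak in 22, 37 and 42 members, and mice 7, 8 and 10 in 8, 11 and 7. The lists of mice 5 and 11 were also the longest, with 6428 and 1392 H3K27me3 peaks against 20 to 309 in the others, among which the order differed, since mouse 8 had 165 peaks and 11 members and mouse 1 had 47 peaks and 22 members. How far depth set the lengths was not tested, since peak lists carry no read totals and the depth is unknown. Members with H3K27me3 in a single list numbered 1061 (81.2%). A further 200 had it in 2 lists, 22 in 3 and 24 in 4 or more. Mouse 5 alone accounted for 993 members, mice 5 and 11 together for 177, and mouse 11 alone for 63. When mouse 5 was left out of every mark, 172 regions met the rule, and the protein-coding genes at members went from 700 to 81.

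**Figure D1:**
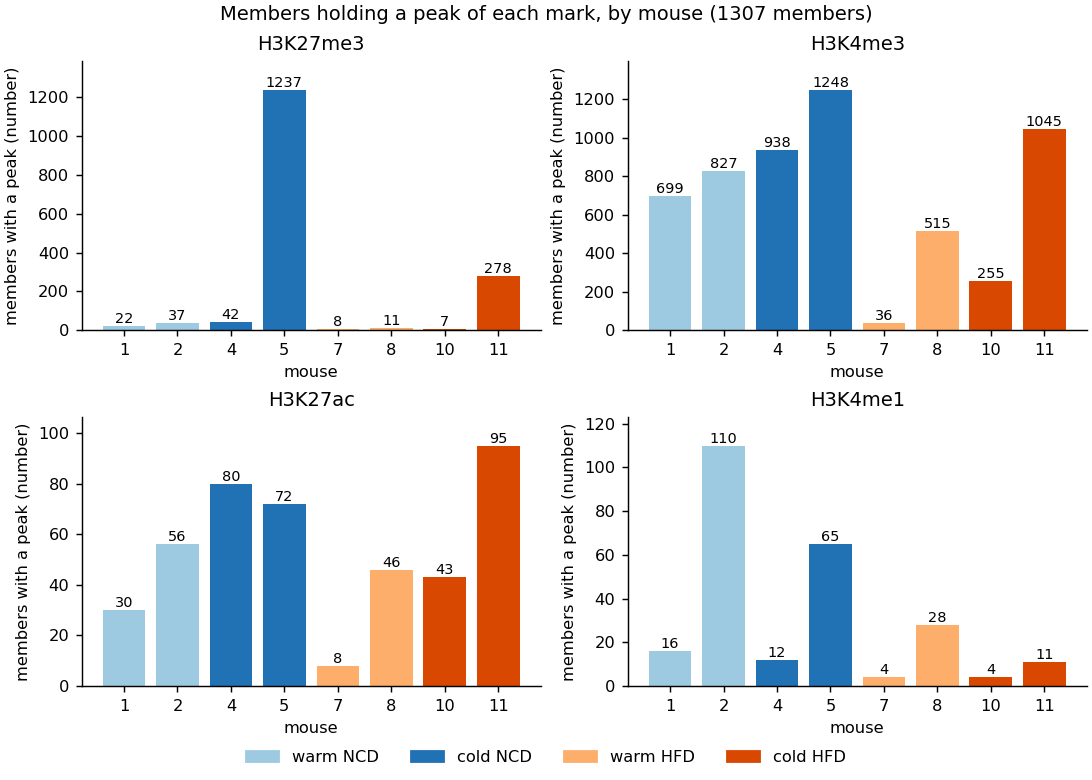
Number of the 1307 members with a peak of H3K27me3, H3K4me3, H3K27ac or H3K4me1 in each mouse, with bars coloured by condition and separate vertical scales. H3K27me3 came from mouse 5 with 1237 members and mouse 11 with 278, whereas H3K27ac stayed between 8 and 95 members.

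**Figure D2:**
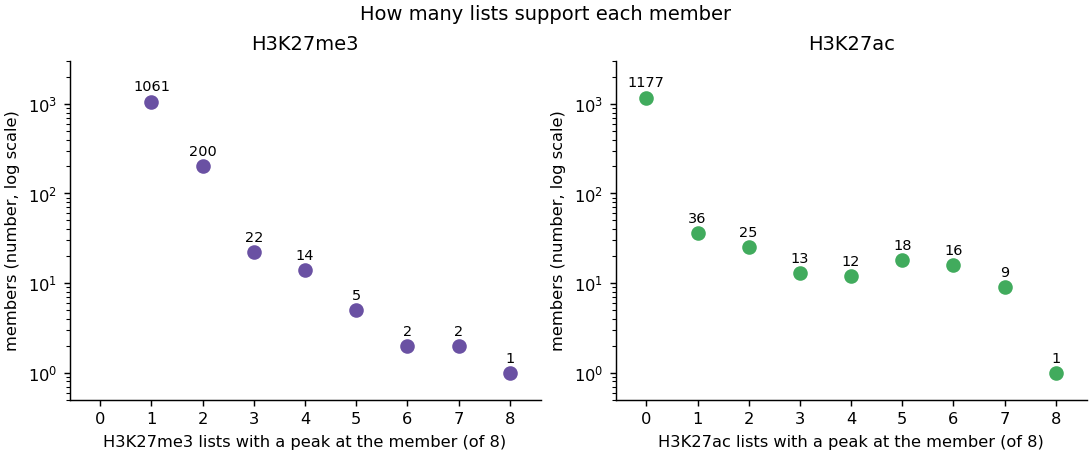
Number of members (log scale) by how many of the 8 lists held a peak there, for H3K27me3 and for H3K27ac. Most members had 1 H3K27me3 list (1061) and 0 H3K27ac lists (1177).

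Sequences are shown for 5 members named in the text and for 1 adipocyte gene. They are not typical in CpG number, since of all stretches taken Pax6 held the most CpGs and Adipoq the fewest. Stretches at the other members with H3K27me3 in 3 lists ran from 1 CpG at Kcnj4 to 13 at E030030I06Rik. Each is a stretch of 200 bases free of annotated exons, read 5′ to 3′ on the gene's strand from the RefSeq GRCm38.p6 genome, with every CpG in capitals. Pax6 and Wnt10b had H3K27me3 in 3 lists, Gsx1 had the lowest q of H3K27me3 in mouse 5 among the named members at gene starts, and Meox2 and Slfn5 also carried H3K27ac. The Pax6 stretch (chr2:105674664-105674863, plus strand, intronic) held 16 CpGs, the Gsx1 stretch (chr5:147187588-147187787, plus strand, upstream of the gene) 14, and the Wnt10b stretch (chr15:98777354-98777553, minus strand, intronic) 6. The Meox2 stretch (chr12:37109354-37109553, plus strand, intronic) held 8 and the Slfn5 stretch (chr11:82952527-82952726, plus strand, intronic) 2. The bases just upstream of Adipoq (chr16:23146336-23146535, plus strand), which encodes adiponectin and had no H3K27me3, held 0. Adipocyte genes and members overlapped in this count. The exon-free bases upstream of Ucp1 held 8 CpGs in 196 bases (4.08 per 100) and those upstream of Pparg 6 in 128 (4.69 per 100). Both lay above the Wnt10b, Meox2 and Slfn5 stretches per 100 bases.
Pax6: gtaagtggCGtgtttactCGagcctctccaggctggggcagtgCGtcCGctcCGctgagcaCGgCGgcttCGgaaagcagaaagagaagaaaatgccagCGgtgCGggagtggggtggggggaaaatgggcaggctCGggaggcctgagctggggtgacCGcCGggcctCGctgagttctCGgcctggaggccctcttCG
Gsx1: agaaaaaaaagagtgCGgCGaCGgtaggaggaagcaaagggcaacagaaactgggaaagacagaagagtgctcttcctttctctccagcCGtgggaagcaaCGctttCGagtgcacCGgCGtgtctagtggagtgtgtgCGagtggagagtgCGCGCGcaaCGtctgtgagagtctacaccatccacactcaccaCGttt
Wnt10b: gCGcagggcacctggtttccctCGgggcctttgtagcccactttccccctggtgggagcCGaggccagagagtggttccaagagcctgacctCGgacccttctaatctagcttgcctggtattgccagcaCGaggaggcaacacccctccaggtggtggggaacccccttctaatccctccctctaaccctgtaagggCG
Meox2: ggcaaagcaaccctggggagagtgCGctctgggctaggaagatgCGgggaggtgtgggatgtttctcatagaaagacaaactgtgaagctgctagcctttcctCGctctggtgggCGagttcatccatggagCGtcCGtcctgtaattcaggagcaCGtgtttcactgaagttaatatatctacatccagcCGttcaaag
Slfn5: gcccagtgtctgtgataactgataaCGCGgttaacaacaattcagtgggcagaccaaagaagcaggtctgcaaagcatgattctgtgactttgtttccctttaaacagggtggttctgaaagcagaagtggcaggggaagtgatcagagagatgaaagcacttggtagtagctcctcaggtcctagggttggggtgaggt
Adipoq: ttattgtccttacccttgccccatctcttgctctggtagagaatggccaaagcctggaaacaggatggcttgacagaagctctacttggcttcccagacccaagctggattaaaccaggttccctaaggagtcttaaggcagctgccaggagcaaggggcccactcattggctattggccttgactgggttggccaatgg

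CpG content was a property the rule did not use. In the central 500 bp, members held a median of 23 CpGs (quartiles 16 and 31) against 9 (5 and 15) in the 5204 H3K27me3 regions without H3K4me3. Windows with a GC content of at least 50% and an observed to expected CpG ratio of at least 0.6 are called dense here. They made up 39.5% of members, 7.17% of H3K27me3 regions without H3K4me3 and 46.5% of H3K4me3 regions without H3K27me3. Counted from the other side, the 1150 H3K4me3 regions (present in at least 2 lists) that a member touched had a median of 38 CpGs in their central 500 bp. Of their windows, 74.7% were dense. The 20387 H3K4me3 regions without any H3K27me3 had a median of 23 CpGs, as members had, and their quartiles of 12 and 41 were wide. Among members, those with no H3K27ac had a median of 23 CpGs and those with H3K27ac in 5 or more lists had 15. The 70 members without an H3K27me3 peak of mouse 5 had a median of 28, and the regions without H3K4me3 were not split in that way.

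**Figure D3:**
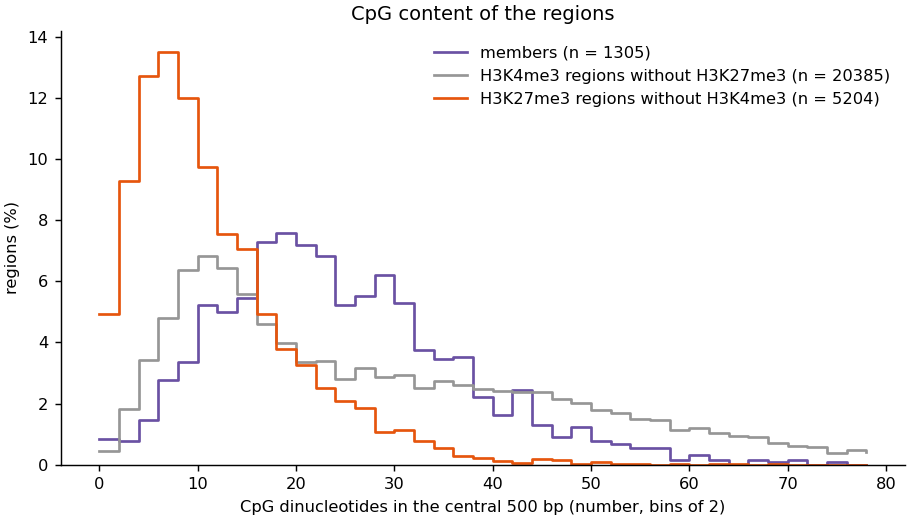
Share of regions (%) by the number of CpG dinucleotides in the central 500 bp, in bins of 2, for members, H3K4me3 regions without H3K27me3 and H3K27me3 regions without H3K4me3. Members peak near 20 CpGs with a median of 23, to the right of H3K27me3 regions without H3K4me3 with a median of 9. H3K4me3 regions without H3K27me3 have the same median as members.

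Most members lay at gene starts. Of the 1307, 782 (59.8%) were within 1000 bp of the start of a protein-coding gene, 88 near other starts, 38 at tRNA or rRNA genes, 132 in exons, 128 in introns and 139 between genes. Counting 1 more that also lay at a tRNA or rRNA gene, 59.9% of members were near a protein-coding start, against 18.7% of H3K27me3 regions without H3K4me3 and 59.0% of H3K4me3 regions without H3K27me3. Members, whose widths depend on the peak calling and on merging, had a median width of 512 bp, or 933 bp with 2 H3K27me3 lists. Together they touched 700 protein-coding genes, 3.36% of the 20807 annotated on these chromosomes and, counting the 692 with H3K4me3 at a start in at least 2 lists, 5.18% of the 13359 such genes. Most genes (603) had 1 member, and Tal1, with 4, had the most.

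Some members lay at developmental transcription factors. Of 226 such genes in 4 lists, 67 (29.6%) had a member at a start site, beside 3.36% of all protein-coding genes. Homeobox factors outside the Hox clusters contributed 36 of 93, among them Pax3, Pax6, Pax9, Dlx2, Dlx5, Lhx2, Nkx2-2 and Six2, which pattern the nervous system, face and limbs. The Hox clusters, which set position along the body axis, contributed 8 of 39, namely Hoxa9, Hoxb6, Hoxb7, Hoxb9, Hoxc9, Hoxd3, Hoxd9 and Hoxd13. Gata, T-box, Sox and forkhead factors contributed 19 of 59, including Gata2, Gata3, Gata4, Gata6, Tbx1, Tbx5, Foxc1 and Foxc2. Basic helix-loop-helix factors contributed 4 of 35, which were Olig2, Tal1, Msc and Bhlhe22. H3K27me3 in at least 1 list, with or without H3K4me3, lay at the starts of more of these genes than had a member. It was found at 77 of 93 homeobox factors outside the Hox clusters and 21 of 39 Hox genes. For Gata, T-box, Sox and forkhead factors the number was 35 of 59, and for basic helix-loop-helix factors 13 of 35. No set test was run on these lists, and they were drawn up with earlier results of these data known.

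None of 37 brown and white adipocyte genes had a member, and with 3.36% of all genes and 5.18% of those with H3K4me3 at a member, a count of 0 in so short a list is near the background. Of the 37, 36 carried H3K4me3 in at least 2 lists and 33 carried H3K27ac in 5 or more. Ucp1, the uncoupling protein of brown fat, had H3K4me3 and H3K27ac in 8 lists each and H3K27me3 in 0, and so had Cidea and Pparg. Prdm16, a determinant of brown fat identity, had H3K4me3 in 7 lists, H3K27ac in 5 and H3K27me3 in 0. Lep, which encodes leptin and is typical of white fat, had H3K4me3 and H3K27ac in 4 lists each and no H3K27me3. None of 10 ubiquitous genes had a member. H3K27me3 without H3K4me3 was seen at Neurod1, a neuronal factor, in 2 lists and at the imprinted gene H19 in 1, so neither was a member.

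The single gene starts show how the marks lay. Pax6, a paired-box factor of the eye and forebrain, had a member of 1411 bp over its exon 1 (chr2:105674172-105675582). Its H3K27me3 peaks had a fold enrichment over background of 4.61 in mouse 4, 5.58 in mouse 5 and 4.61 in mouse 11. Its H3K4me3 peaks reached 4.22 and 4.21 in the warm NCD mice, 8.2 and 10.1 in the cold NCD mice and 6.95 in mouse 11. Both marks chose the members, so these values are a description. No mouse had an H3K27ac peak at Pax6. Hoxd13, which patterns the digits, had H3K27me3 at 7.29 in mouse 5, 4.87 in mouse 8 and 5.34 in mouse 11, over a member covering exons 1 and 2 (chr2:74668494-74670213). Its H3K4me3 enrichment was 5.43 in mouse 2, 2.05 and 5.51 in the cold NCD mice and 5.5 in mouse 11. Gsx1, a homeobox factor of neural progenitors, had H3K27me3 at 9.67 in mouse 5 and 4.41 in mouse 11 and H3K4me3 at 3.91 to 10.5 in 5 mice. Olig2, a factor of oligodendrocytes and motor neurons, had H3K27me3 at 9.33 and 4.22 in the same mice, and H3K4me3 at 3.38 to 14.4 in 6 mice. Gsx1 and Olig2 were named for the low q of H3K27me3 in mouse 5, a choice that favours a high enrichment in that mouse.

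Gata6, a factor of endoderm and heart on chr18:11052621-11053117, was marked by H3K4me3 in 7 lists. Its H3K4me3 enrichment was 13.5 and 12.5 in the warm NCD mice, 21.4 and 30.7 in the cold NCD mice, 5.62 in mouse 8, and 7.43 and 14.4 in the cold HFD mice. H3K27me3 was found there in mouse 5 at 5.79 and in mouse 11 at 4.04, and H3K27ac in no mouse. Gata4, its relative in heart and gonad, had H3K4me3 in 4 lists at 3.08 to 10.9, H3K27me3 at 6.95 in mouse 5 and 5.37 in mouse 11, and no H3K27ac. Eomes, a T-box factor of early mesoderm and lymphocytes, had H3K4me3 in 6 lists at 2.85 to 11.7 and H3K27me3 at 7.29 and 4.61 in mice 5 and 11.

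Members at signalling genes lay at 7 of 40 (17.5%) Wnt ligands, receptors and antagonists (Wnt1, Wnt2b, Wnt10b, Dkk2, Dkk3, Sfrp2 and Ror1) and at 8 of 55 (14.5%) ligands and antagonists of the BMP, TGF-beta, FGF and hedgehog families (Bmp8a, Gdf7, Inha, Nodal, Nog, Fgf5, Fgf15 and Dhh), beside 3.36% of all genes and 5.18% of those with H3K4me3. Wnt10b, a Wnt ligand that restrains adipocyte differentiation, had a member of 2352 bp (chr15:98775649-98778000) over exons 1 to 3. H3K27me3 enrichment at Wnt10b was 4.16 in mouse 4, 8.65 in mouse 5 and 5.37 in mouse 11, and H3K4me3 was found in mouse 4 at 3.34 and in mouse 5 at 9.76. With H3K4me3 in exactly 2 lists, Wnt10b was just inside the rule, as were Nptx1, a neuronal pentraxin, and Tfap2e, an AP-2 factor. Just outside it, with H3K4me3 in 1 list, lay a second region at Hoxa9 (−log10 q of H3K27me3 in mouse 5 of 14.2), one at Nrn1 (11.7) and one at Disp3 (10.5). The 319 members with H3K4me3 in exactly 2 lists were at protein-coding starts in 53.6% of cases and the 549 regions with it in 1 list in 54.1%, and H3K27ac was seen in at least 1 list at 5.33% and 8.93% of them. Pdgfra, 1 of 7 markers of fibroblasts and preadipocytes, was the only gene of all the cell type marker lists with a member. With 3.36% of all genes and 5.18% of those with H3K4me3 at a member, 1 gene over these lists is near the background. At Pdgfra, H3K4me3 was found in 6 lists at 2.69 to 26.0 and H3K27me3 in mouse 5 at 6.61 and mouse 11 at 4.22, with H3K27ac in none.

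Of protein-coding starts with H3K27me3 in 3 lists, those named by rule besides Pax6, Hoxd13 and Wnt10b were Nxph4, a neurexophilin, Kcnj4, an inwardly rectifying potassium channel, Cacnb3, a calcium channel subunit, Hpcal4, a neuronal calcium sensor, Trim36, a ubiquitin ligase, Cyp27b1, the enzyme that activates vitamin D, and E030030I06Rik. At Nxph4, H3K27me3 enrichment was 4.86 in mouse 4, 7.63 in mouse 5 and 5.37 in mouse 11. Cyp27b1 had 5.92, 7.12 and 4.57 in the same mice, and Hpcal4 had 4.64, 7.79 and 6.14. None of these 10 starts had an H3K27ac peak in any mouse. Of all members at protein-coding starts, 7.42% had H3K27ac in at least 1 list, so this count is near the background. E030030I06Rik carried H3K4me3 in 8 lists at 5.26 to 120, the widest range among the named members, beside H3K27me3 in mice 4, 5 and 11 at 4.54 to 6.26. Further starts with strong H3K27me3 in mouse 5 were at Cacna1g, a T-type calcium channel, Dlx4, Fibcd1, Kcnmb4, Il20ra and Aldh1a2, which makes retinoic acid, and these too lacked H3K27ac. Ap1s3, Nrn1, Ptger2, the prostaglandin E2 receptor EP2, and Mapk11, a p38 kinase, had H3K4me3 in 8 lists and H3K27ac in 0.

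Of 32 imprinted genes, Igf2 and Kcnq1 (6.25%) had a member, each with H3K27me3 in mouse 5 alone (5.24 and 4.9). Of 29 cell cycle inhibitors and Polycomb subunits, the chromobox genes Cbx7 and Cbx8, which encode readers of H3K27me3, had a member (6.9%), again in mouse 5 alone (5.34 and 5.24). Both shares were near the background of 3.36% of all genes and 5.18% of those with H3K4me3. Members also lay at the microRNA genes Mir9-1, Mir3093, Mir137 and Mir6546 and at the host transcript Mir124a-1hg. The member at Mir9-1 (chr3:88214556-88216790) covered both mature arms and Mir3093, and had H3K27me3 in 3 lists, H3K4me3 in 5 and H3K27ac in 0. The member near Mir137 had H3K27me3 in 1 list and H3K4me3 in 2, and that at Mir124a-1hg had them in 1 and 6. Mir6546 had 2 members at tRNA or rRNA genes, with H3K27me3 in 4 and 2 lists. Mature sequences from RefSeq (GRCm38.p6) are given for both arms of miR-9 and for miR-137-3p, widely studied in neurons, with the seed, bases 2 to 8, in capitals. The 3 seeds differ from each other.
mmu-miR-9-5p: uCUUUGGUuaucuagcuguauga
mmu-miR-9-3p: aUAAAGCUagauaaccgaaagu
mmu-miR-137-3p: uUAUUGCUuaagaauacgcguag

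**Figure D4:**
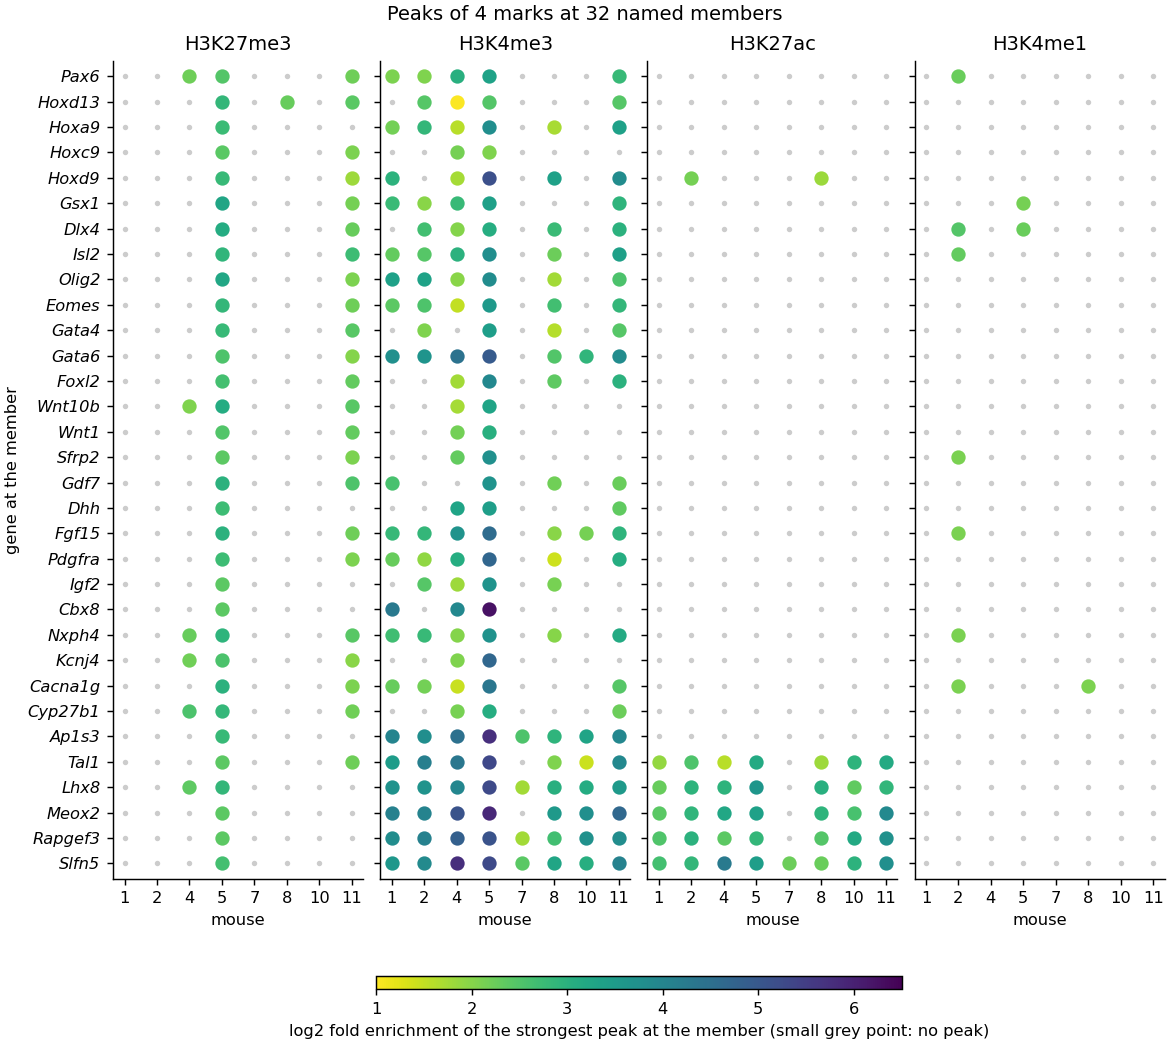
Peaks of H3K27me3, H3K4me3, H3K27ac and H3K4me1 at 32 named members (rows) in the 8 mice (columns of each panel), with large points coloured by log2 fold enrichment and small grey points where no peak was listed. H3K27me3 sits in mouse 5 in every row and often in mouse 11, and H3K27ac appears in 7 or 8 mice only at Tal1, Lhx8, Meox2, Rapgef3 and Slfn5, with 2 mice at Hoxd9.

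H3K27ac was rare where H3K27me3 met H3K4me3. Of the 1307 members, 130 (9.95%) overlapped H3K27ac in at least 1 list, beside 68.3% of all H3K4me3 regions and 2.97% of all H3K27me3 regions. The H3K27ac peaks of each mouse were then set against the 1150 H3K4me3 regions with and the 20387 without H3K27me3. In regions with H3K27me3, 3.91% and 7.48% had H3K27ac in the warm NCD mice, 7.22% and 8.17% in the cold NCD mice, 0.87% and 5.74% in the warm HFD mice and 4.87% and 11.0% in the cold HFD mice. Without H3K27me3 the shares were 43.2% and 61.1%, 50.0% and 61.7%, 6.58% and 54.0%, and 28.5% and 62.9% in the same order. The regions with H3K27me3 were lower in 8 of 8 mice, 5.74 to 11.0 times, and the groups overlapped only through mouse 7, whose H3K27ac list was the shortest. The means were 6.15% ± 3.04 and 46.0% ± 19.7 (SD, n = 8), with a difference of -39.8 points (two-sided exact permutation test over sign flips within mice, p = 0.00781, the smallest it can give, adjusted p = 0.0104). Without mouse 5 the difference was -36.2 points, with the regions rebuilt from the other mice, as wherever a mouse is left out below.

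**Figure D5:**
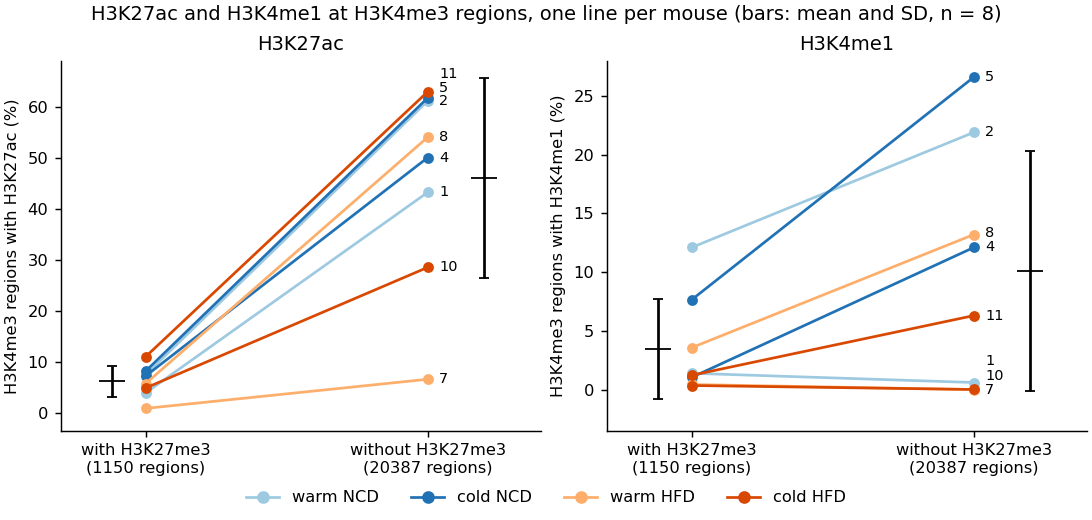
Share (%) of H3K4me3 regions with H3K27ac (left) or H3K4me1 (right) in each mouse, for regions with and without H3K27me3, with lines joining the values of 1 mouse, colours for conditions and black bars for mean and SD (n = 8). H3K27ac falls from a mean of 46.0% without H3K27me3 to 6.15% with it in all 8 mice, whereas the H3K4me1 shares of mice 1, 7 and 10 lie near 0 on both sides.

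H3K4me3 itself was weaker at members, which is a description since it entered the rule. In mouse 5 the median enrichment was 14 at members and 31.4 at other H3K4me3 peaks, and in mouse 2 it was 6.96 and 16.8. H3K4me3 lay in all 8 lists at 59 of the 1150 regions with H3K27me3 and at 9503 of the 20387 without it, so the H3K27ac shares were compared at equal numbers of lists. At each number from 2 to 8, the regions with H3K27me3 were lower in 8 of 8 mice. Among regions with H3K4me3 in all 8 lists, 38.1% ± 17.6 of those with H3K27me3 and 66.1% ± 27.5 of those without it had H3K27ac (SD, n = 8). Standardised to the number of lists, the difference was -23.1 points (exact permutation p = 0.00781), a smaller gap than the -39.8 points of the plain comparison. Within mouse 5, 24.6% of H3K27me3 peaks overlapped its own H3K4me3, and of its 1000 strongest H3K4me3 peaks 1 overlapped H3K27me3.

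H3K27ac was seen in 5 or more lists at 44 members. At protein-coding starts they included Slfn5, an interferon-induced gene, with H3K27ac in 8 lists, and Lhx8, Meox2, Rapgef3, Pcdh1, Slc43a3, Tagln2 and Tal1 with 7. Among others of the 44, picked after their values were seen, Sox17 and Tal1 encode transcription factors, Dll4 a Notch ligand and Thbd thrombomodulin. None of the 7 endothelial marker genes had a member. At Slfn5 (chr11:82951756-82952727) H3K27ac enrichment was 6.29 and 7.27 in the warm NCD mice, 19 and 10.8 in the cold NCD mice, 4.72 and 4.79 in the warm HFD mice and 7.86 and 13.8 in the cold HFD mice, and H3K27me3 was found in mouse 5 at 6.26. At Lhx8 (chr3:154330350-154330689), a LIM-homeobox factor expressed in brown fat, H3K27ac lay between 4.87 and 12.2 in 7 mice, and H3K27me3 was 5.12 in mouse 4 and 7.29 in mouse 5. Meox2 had H3K27ac at 5.31 to 15.1 in 7 mice and H3K27me3 at 5.24 in mouse 5. These starts were picked for their number of H3K27ac lists, and H3K27me3 in 1 or 2 lists was usual among all members. Within mouse 5, H3K27me3 and H3K27ac peaks met in 76 pairs at members, with a median of 78.0% of the H3K27me3 peak covered and the H3K27me3 summit inside the H3K27ac peak in 58 pairs.

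Against H3K27me3 regions without H3K4me3, members had more of both other marks. The groups were set by H3K4me3, and 68.3% of all H3K4me3 regions had H3K27ac in at least 1 list. A trait of members therefore cannot be told here from a trait of H3K4me3 regions in general. H3K27ac was found at 4.11% ± 2.16 of members and 0.106% ± 0.102 of the 5204 regions (SD, n = 8), higher in 8 of 8 mice (exact permutation p = 0.00781, adjusted p = 0.0104). H3K4me1 was found at 2.39% ± 2.87 and 0.0937% ± 0.0949, also higher in 8 of 8 mice (exact permutation p = 0.00781, adjusted p = 0.0104). In mice 7 and 10, with 12 and 18 H3K4me1 peaks, this rested on 4 members each. Without regions that held peaks of all 4 marks in mouse 7 or 10, the difference was 2.08 points (exact permutation p = 0.0312, adjusted p = 0.0417). The plain difference of 2.3 points was 6.18 without mouse 5, 1.49 without mouse 2 and 0.579 once only peaks reaching a −log10 q of 5 were counted. Over all lists, 167 members (12.8%) overlapped H3K4me1 in at least 1 list, beside 3.71% of all H3K27me3 regions and 38.6% of all H3K4me3 regions. Against H3K4me3 regions without H3K27me3, the H3K4me1 share was 3.47% ± 4.24 against 10.1% ± 10.2 (SD, n = 8), lower in 5 of 8 mice, and did not pass the test (exact permutation p = 0.0625). The mice in which it was not lower, 1, 7 and 10, had H3K4me1 lists of 592, 12 and 18 peaks, and without mouse 5 the difference was 0.464 points in the opposite direction.

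The share of members with H3K27ac or H3K4me1, which the rule did not use, did not differ beyond the spread between cold and warm or between HFD and NCD mice. H3K27ac lay at 2.3% and 4.28% of members in the warm NCD mice, 6.12% and 5.51% in the cold NCD mice, 0.612% and 3.52% in the warm HFD mice and 3.29% and 7.27% in the cold HFD mice. Cold mice averaged 5.55% ± 1.67 and warm mice 2.68% ± 1.6 (SD, n = 4 each), with overlapping groups (exact permutation p = 0.0857, adjusted p = 0.343). Leaving a mouse out also rebuilt the members. Without mouse 5 the cold minus warm difference was -0.824 points over 172 members, instead of 2.87 over 1307. HFD mice averaged 3.67% ± 2.74 and NCD mice 4.55% ± 1.69 (exact permutation p = 0.657, adjusted p = 0.657, n = 4 each). For H3K4me1, the means were 1.76% ± 2.16 in cold and 3.02% ± 3.67 in warm mice (exact permutation p = 0.571, adjusted p = 0.657, n = 4 each). They were 0.899% ± 0.866 with HFD and 3.88% ± 3.54 with NCD (exact permutation p = 0.171, adjusted p = 0.343, n = 4 each), and this difference of -2.98 points was -7.51 without mouse 5 and -1.52 without mouse 2. With 4 mice against 4 the smallest p is 0.0286, which alone cannot pass after adjustment over 4 tests. A missed threshold therefore does not show that the shares were equal. The interaction of cold and diet gave exact permutation p = 0.886 for H3K27ac and p = 0.857 for H3K4me1.

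H3K27ac was found in all 4 cold and no warm mice at 3 members (0.23%), beside 0.185% of all H3K4me3 regions, so the share was near the background. Named after their values were seen, 2 of the 3 lay within Gata2, a factor of blood and endothelial lineages that also restrains adipogenesis (chr6:88202322-88202572, exonic, and chr6:88203198-88203957, intronic), and the other in an intron of Casz1, a zinc finger factor. H3K27ac in all 4 NCD and no HFD mice was found at 1 member, in an intron of Ranbp3l, beside 0.0923% of all H3K4me3 regions. H3K4me1 followed diet in that way at 1 intergenic member, beside 0.0831%.

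The members with the widest H3K27me3 support lay elsewhere. Of the 24 with H3K27me3 in 4 or more lists, 0 lay at a protein-coding start, 16 had H3K27ac and 22 had H3K4me1 in at least 1 list. One in an intron of Kctd16 (chr18:40308024-40308350) had H3K27me3 in 8 lists, H3K27ac and H3K4me1 in 6 each and H3K4me3 in 4, and its H3K27me3 enrichment in mouse 5 was 34.0. Peaks of all 4 marks in mouse 7 or mouse 10, whose H3K27me3 lists held 21 and 20 peaks, were found at 6 members. Of the 38 members at tRNA or rRNA genes, which exist in many near-identical copies so that read placement is uncertain, 28 (73.7%) had H3K27me3 in 2 or more lists, against 14.2% of those at protein-coding starts. Without these 38, the H3K27ac difference between H3K4me3 regions with and without H3K27me3 was -39.5 points.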

How the data were processed

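Each of 8 mice gave 4 ChIP-seq libraries and an input; the 32 peak lists were used, 1 per library. Per the labels and methods, the authors filtered reads with cutadapt, aligned them to GRCm38 with bowtie2 and called peaks with MACS2 against the input of the same mouse; the sources used here state neither tool versions nor the threshold. The deposited lists hold, for each peak, a fold enrichment (a ratio) and a −log10 q-value, and the lowest −log10 q deposited was 1.3. They hold no counts, so depth is unknown, and a missing peak is not the absence of a mark.

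Peaks of a mark were merged when they shared at least 1 bp. Start sites, exons and introns came from GENCODE M21 basic, tRNA genes from RefSeq, and a gene was at a member within 1000 bp of a start. A printed fold is that of the strongest peak at the member. Shares of regions were compared within mice by two-sided exact permutation (sign flips), and between 4 and 4 mice by exact permutation, each with Benjamini-Hochberg adjustment over 4 tests. Code was tested on simulated data. Members, gene lists, tests and alternatives were chosen with earlier results of these data known. Genes were named by fixed rules: members at protein-coding starts with the most H3K27me3 lists (10), lowest q in mouse 5 (10), most H3K27ac lists (5), H3K4me3 in 8 lists without H3K27ac (5), members at the rule's edge (3 on each side), up to 4 per gene list and 10 reference genes; others were named from list counts or after their values were seen. Mouse numbers tie the libraries of 1 mouse, which the tests within mice use. Python 3.11.15, numpy 2.4.6, pandas 2.3.3 and scipy 1.17.1 were used.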

Additional observations from a re-analysis of the deposited data

Results flagged for a closer look

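Among 40 sets of shares by mark and group, 5 held a mouse far from the others. The sets reuse the same mice and include the 2 marks that chose the members, so the count was not set against chance. The H3K27me3 shares follow the lists that supplied the members and are a description. Mouse 5 held H3K27me3 at 94.6% of members against 0.536% to 21.3% in the other 7 mice, and against 1.68% to 3.21% in the other NCD mice. Mouse 11 held it at 21.3% against 0.536% to 0.842% in the other HFD mice. In mouse 5, H3K4me1 lay at 4.97% of members against 0.306% to 0.918% in the other cold mice, and at 7.65% of H3K4me3 regions with H3K27me3 against 0.348% to 1.22%. Outside chromosomes 1 to 19, in data the comparisons do not use, 9 of 48 H3K27me3 regions overlapped H3K4me3 in 2 or more lists.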

How the results depend on the processing

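The H3K27ac difference between H3K4me3 regions with and without H3K27me3 kept its direction and passed the threshold in all 17 alternatives (-51.5 to -23.1 points, adjusted p 0.00104 to 0.0417), as did both comparisons with H3K27me3 regions without H3K4me3 in 16 each (2.58 to 5.54 points for H3K27ac, 0.579 to 6.36 for H3K4me1). Without the replicate block, that is with an unpaired exact permutation, the 4 differences (-39.8, -6.62, 4.01 and 2.3 points) had adjusted p of 0.00104, 0.12, 0.000311 and 0.000311, and no call changed. The temperature and diet comparisons could not be paired, because mouse numbers are not shared between temperatures or diets. The number of members and of their genes, 1307 and 700, became 749 and 454 with H3K4me3 in at least 4 lists, 669 and 395 when H3K4me3 covered 50% of the region, and 354 and 195 at −log10 q of at least 5. Leaving out 1 mouse at a time gave 172 to 1306 members and 81 to 700 genes, with the lowest without mouse 5. The H3K4me1 difference at H3K4me3 regions passed with fixed windows (-4.87 points) and without regions with 4 marks in mouse 7 or 10 (-6.91), and ran from -7.74 to 0.464 points when 1 mouse was left out. Subtracting the share at H3K4me3 regions without H3K27me3 turned the direction of H3K27ac with temperature (-6.73) and diet (15.1) and of H3K4me1 with diet (7.47). H3K27ac with temperature was -0.508 in members with at least 2 H3K27me3 lists, and H3K27ac with diet was 1.07 without mice 7 and 10, an alternative chosen after seeing the data, as were the standardised shares and the removal of tRNA and rRNA genes. Leaving out 1 mouse gave -0.824 to 3.62 points for H3K27ac with temperature, -2.53 to 0.268 with diet, -5.72 to 0.562 for H3K4me1 with temperature and -7.51 to -1.52 with diet. In members with at least 2 H3K27me3 lists, the diet differences were -2.95 points for H3K27ac and -9.04 for H3K4me1. Both had exact permutation p = 0.0286, the smallest possible, and adjusted p = 0.0571. None of the temperature or diet values passed the threshold (adjusted p 0.0571 to 0.914 over the alternatives), which a single p at that floor could not do. The cause of the changes was not tested. Missing depth limits what a short list can show.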
